A study of Mus musculus with 4 samples.

Results

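The genes described here encode the ligands, receptors, SMAD transducers, inhibitors and immediate targets of bone morphogenetic protein (BMP) and transforming growth factor beta (TGF-beta) signalling. They were taken by symbol from the deposited table of the hippocampus: names that start with Bmp, Bmpr, Tgfb, Acvr, Gdf or Ltbp in the forms of this family, the SMAD genes, Smurf1 and Smurf2, Inhba and Inhbb, Id1 to Id4, names that start with Fst, and Nog, Chrd, Bambi and Grem1. The rule found 55 of the 15713 genes. It uses names only and no measured value entered it, but it was chosen with earlier results of these data known. A further 14 mouse symbols of the GENCODE annotation match the rule, such as Bmp5, Gdf15 and Ltbp2. They are not among the 15713 genes of the deposited table, so they were not analysed here.

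The mice were of the inbred strain C57BL/6 and 11 to 12 weeks old when messenger RNA of their hippocampus was sequenced. The ATO group (n = 2 libraries) carries the label of a developmental exposure to 5000 ppb ATO, and the control group (Ctr, n = 2) that of untreated mice; nothing else in the labels separates the groups. ATO is not spelled out there, and the series title speaks of arsenic-exposed offspring. The question set by the design is how the hippocampal transcriptome differs between the groups. The labels do not say how or when in development ATO was given, which sex the mice were, or whether a library is 1 animal or a pool, so p-values measure only the spread between these samples.

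In this pathway a dimeric ligand joins type 1 and type 2 receptor kinases, and the type 1 receptor phosphorylates receptor SMAD proteins. SMAD1, SMAD5 and SMAD9 carry the BMP signal, SMAD2 and SMAD3 the signal of TGF-beta and activin, and both classes enter the nucleus with SMAD4. Secreted antagonists such as noggin and chordin bind BMP ligands outside the cell. In the adult dentate gyrus, BMP signalling restrains the division of neural stem cells and noggin counters it, and activin A is a product of neuronal activity. ID proteins, whose genes BMP signalling induces, bind basic helix-loop-helix factors and keep them off DNA.

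Of the 55 genes, 3 rose in ATO and 0 fell, at an adjusted p under 0.05 in edgeR's quasi-likelihood test over all genes. The 3 are Bmp6, which encodes a BMP ligand, Inhba, which encodes the subunit of activin A, and Id4, an ID gene. This is 5.45% of the family, against 3.73% of all genes tested that passed in either direction and 2.87% that passed as higher in ATO; for genes lower in ATO it is 0 of 55, against 0.859% of all genes. Both ATO libraries lay above both Ctr libraries for 18 of the 55 genes (32.7%, against 24.8% of all genes). They lay below for 10 (18.2%, against 23.4%). At an unadjusted p under 0.05, 14 members were higher (25.5%, against 10.6% of all genes) and 3 were lower (5.45%, against 7.55%). The 3 lower ones are Nog, Chrd and Grem1, all antagonists of BMP ligands, and neither DESeq2 nor limma-voom called any member lower. The count of 14 higher genes was 6 in DESeq2's Wald test (all genes 6.4%), 7 without Ctr replicate 2 (8.31%) and 7 without ATO replicate 1 (6.63%). The count of 3 lower genes was 1 in DESeq2's Wald test, where it is Chrd, and 2 without either ATO replicate. Without Ctr replicate 2 it was 1, where it is Id2; Nog, Chrd and Grem1 then had unadjusted p of 0.223, 0.438 and 0.194. The median log2 fold change of ATO over Ctr was 0.06 over the 55 genes and -0.005 over all 15713; over the 55 it was 0.13 without Ctr replicate 1 and 0.024 without Ctr replicate 2.

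**Figure D1:**
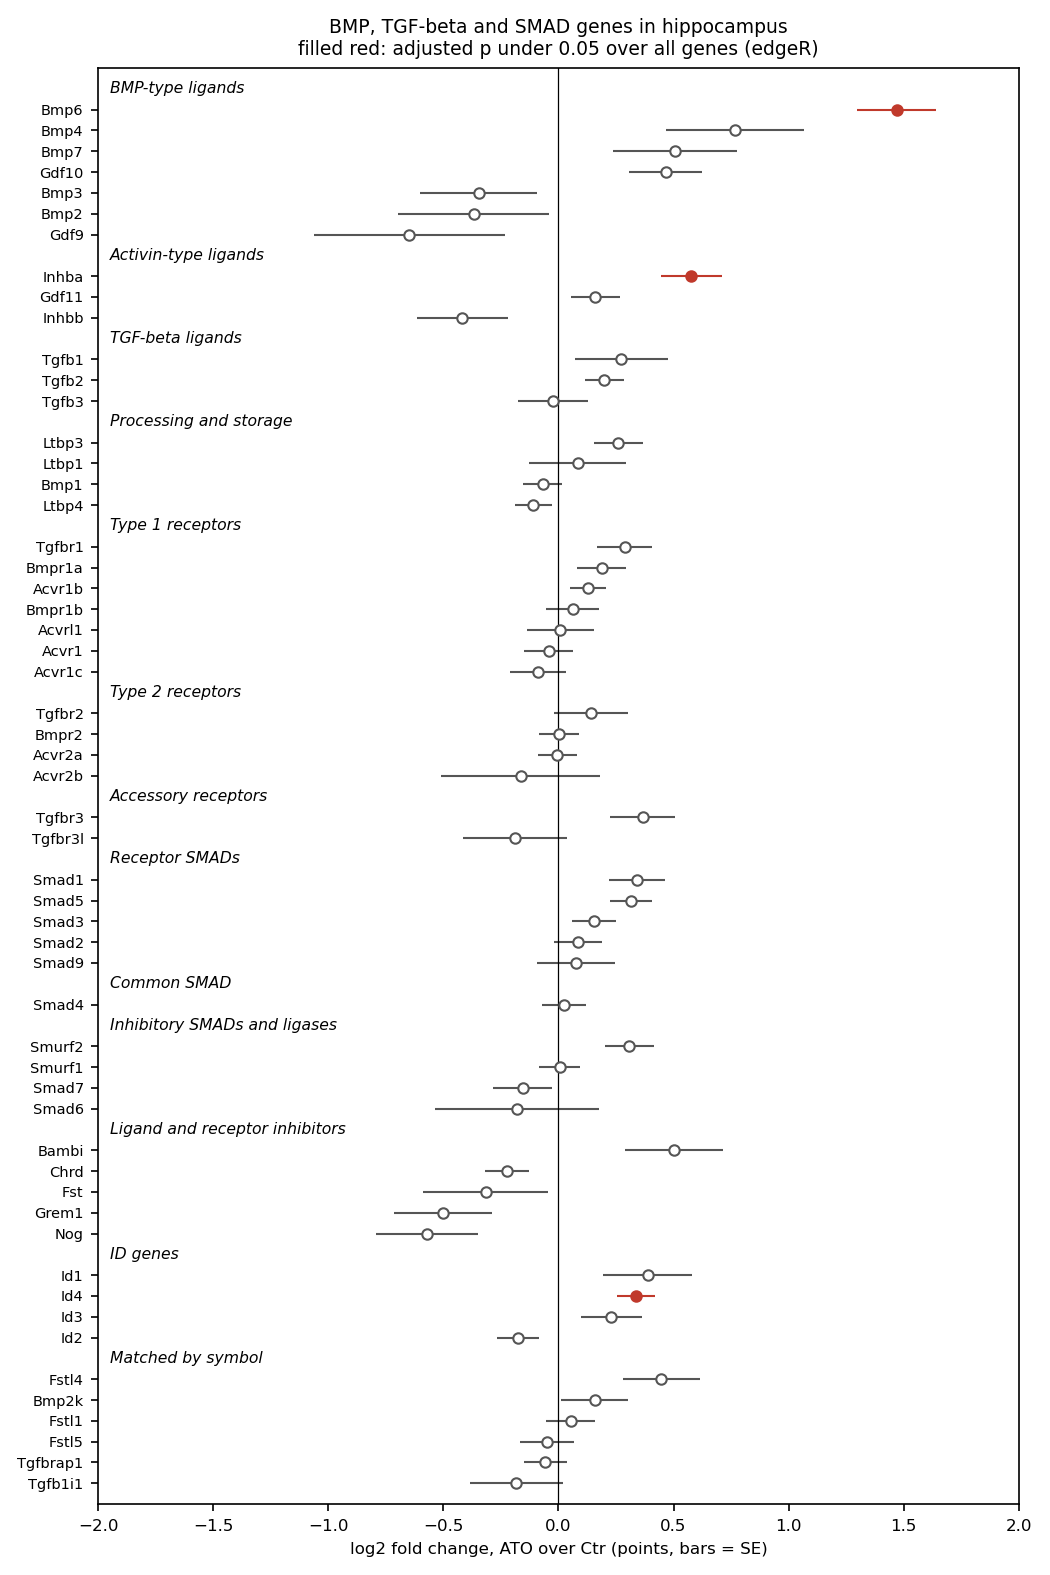
Log2 fold change of ATO over Ctr (x axis, points with SE bars, from 2 libraries per group) for the 55 genes, grouped by role. Filled red points passed an adjusted p under 0.05 over all genes: Bmp6 at 1.47, Inhba at 0.58 and Id4 at 0.34, while 4 of the 5 inhibitors of ligands or receptors lie left of 0 without passing.

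The promoters of the 3 genes that rose, 250 bases before to 50 bases after the RefSeq transcription start (GRCm38.p6, 5′ to 3′), are set beside those of Id2 and Smad6, textbook BMP targets that did not pass. Capitals mark matches to SMAD-related motifs on either strand: GGCGCC, the GC-rich element of SMAD1 and SMAD5, and GTCTAGAC, the SMAD palindrome; the CAGA box CAGACA was searched too and is in none of the 5. These motifs do not overlap each other in the 5 windows.
Bmp6 promoter, chr13:38345466-38345765, plus strand: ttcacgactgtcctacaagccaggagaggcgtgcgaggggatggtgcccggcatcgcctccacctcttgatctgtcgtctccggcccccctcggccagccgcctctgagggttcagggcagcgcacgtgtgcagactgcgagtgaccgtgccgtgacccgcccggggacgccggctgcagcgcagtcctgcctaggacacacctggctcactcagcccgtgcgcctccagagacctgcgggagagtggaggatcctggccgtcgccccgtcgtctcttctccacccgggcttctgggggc
Inhba promoter, chr13:16011601-16011900, plus strand: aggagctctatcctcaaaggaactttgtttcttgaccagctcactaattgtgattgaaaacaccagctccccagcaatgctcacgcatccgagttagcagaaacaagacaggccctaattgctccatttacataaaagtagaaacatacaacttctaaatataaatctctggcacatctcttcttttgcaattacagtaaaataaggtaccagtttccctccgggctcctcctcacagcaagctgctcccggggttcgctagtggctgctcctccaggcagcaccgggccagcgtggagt
Id4 promoter, chr13:48260866-48261165, plus strand: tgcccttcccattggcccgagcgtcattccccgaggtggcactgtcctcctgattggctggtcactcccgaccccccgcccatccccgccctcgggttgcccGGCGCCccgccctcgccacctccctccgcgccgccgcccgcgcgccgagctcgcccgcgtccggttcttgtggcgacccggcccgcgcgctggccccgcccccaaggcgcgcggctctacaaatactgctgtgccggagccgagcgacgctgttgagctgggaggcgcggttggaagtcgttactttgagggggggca
Id2 promoter, chr12:25096043-25096342, minus strand: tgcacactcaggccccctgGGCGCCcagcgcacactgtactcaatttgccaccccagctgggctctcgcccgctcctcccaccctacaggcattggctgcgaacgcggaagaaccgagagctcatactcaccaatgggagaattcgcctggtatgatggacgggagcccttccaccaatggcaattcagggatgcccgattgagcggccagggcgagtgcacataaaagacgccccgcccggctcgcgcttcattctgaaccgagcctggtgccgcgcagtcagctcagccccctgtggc
Smad6 promoter, chr9:64022010-64022309, minus strand: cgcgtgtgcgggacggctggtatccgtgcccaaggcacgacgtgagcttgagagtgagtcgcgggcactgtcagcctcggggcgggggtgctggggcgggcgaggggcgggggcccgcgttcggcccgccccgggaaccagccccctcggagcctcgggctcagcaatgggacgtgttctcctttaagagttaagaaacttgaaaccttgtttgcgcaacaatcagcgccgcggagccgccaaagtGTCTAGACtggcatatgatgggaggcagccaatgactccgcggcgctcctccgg

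GGCGCC is in the windows of Id4 and Id2, 148 and 231 bases upstream of the start, and in 11.9% of all 32851 promoter windows of the same length. GTCTAGAC begins 4 bases upstream of the Smad6 start and is in 0.213% of all windows; CAGACA is in 21.0%. None of the motifs is in the windows of Bmp6 and Inhba. The window of Id3, another ID gene that did not pass, was searched as well and holds none of the motifs. Its sequence is not printed here. Matches were not listed for Id1 and Smad7, which did not pass either. GGCGCC is present both at Id4, which rose, and at Id2, which did not pass. A match is a description of letters, not of binding. RefSeq windows were found for 39 of the 55 genes.

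The 4 libraries held between 14832214 and 17251032 counts, so 1 count is 0.0574 to 0.0678 CPM (counts scaled to library size). As a check of the tissue, 12 neuronal markers of the hippocampus were counted at 458 or more reads in every library, and 0 of the 12 passed in edgeR (3 at an unadjusted p under 0.05). Markers of neighbouring cell types moved with the groups, and their lists were chosen with earlier results of these data known. All 20 choroid plexus markers rose in ATO, with summed levels of 3385 and 4237 CPM in ATO against 152 and 223 CPM in Ctr and a median log2 fold change of 4.096. Of 12 ependymal markers 8 rose (summed 63.4 and 45.9 CPM in ATO, 21.9 and 27.2 CPM in Ctr), and of 15 leptomeningeal markers 1 rose and 1, Dcn, fell. Of these 15, 13 had a positive log2 fold change, 7 were higher at an unadjusted p under 0.05, and the median was 0.64. The leptomeningeal sum was 236 and 160.5 CPM in ATO replicates 1 and 2 against 189 and 154 CPM in Ctr replicates 1 and 2. Of 12 dentate granule neuron markers 2 rose, and of 11 CA1 markers 4 fell, of which Dcn is also on the leptomeningeal list. The dentate median log2 fold change was 0.30, with 10 markers positive and 2 negative. At an unadjusted p under 0.05, 8 dentate markers were higher (66.7%, against 10.6% of all genes). The CA1 median was -0.37, with 9 markers negative and 2 positive. At that p, 7 CA1 markers were lower (63.6%, against 7.55% of all genes). No marker of these lists was at 0 in any library. In whole tissue, fewer cells of a type and less RNA per cell cannot be told apart, and the part of these cell types in the results that follow was not tested.

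**Figure D2:**
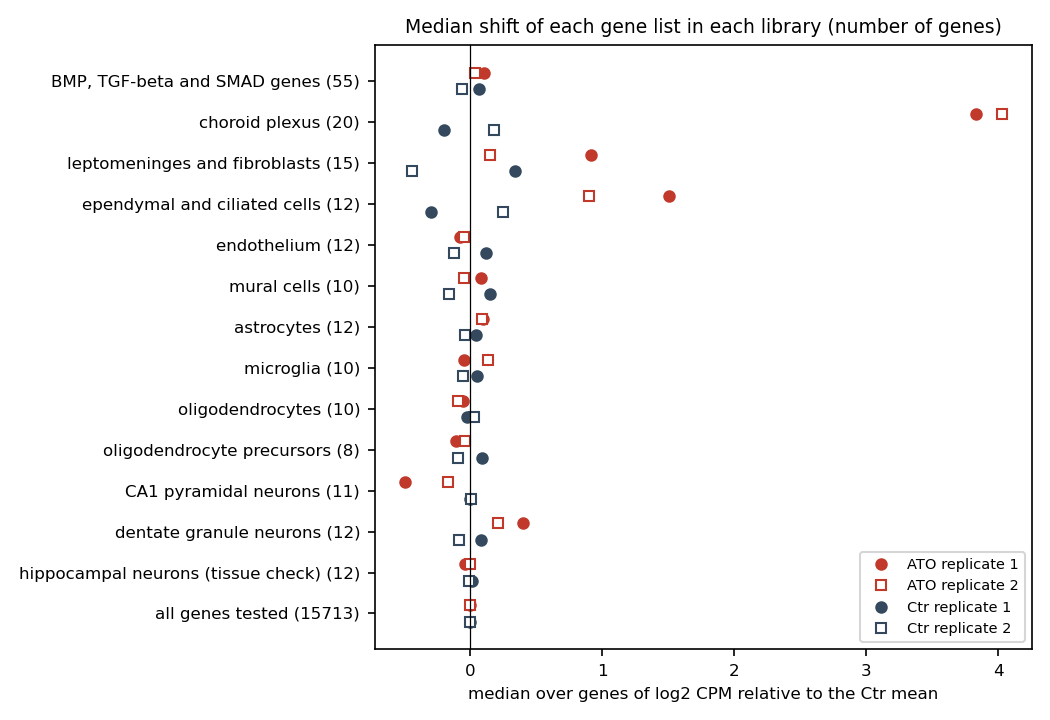
Median over each gene list of log2 CPM relative to the Ctr mean (x axis), for ATO replicates (red) and Ctr replicates (dark blue), with the number of genes tested in brackets. The choroid plexus median stands at 3.83 and 4.03 in the ATO replicates. The median of the BMP, TGF-beta and SMAD genes stays within 0.105 of 0 in all 4 libraries, while single genes lie further out.

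Among the 7 BMP-type ligands 1 rose and 0 fell. Bmp6 (ENSMUSG00000039004, chromosome 13 from 38345107 to 38500302, plus strand, GRCm38) had 276 and 246 counts in ATO and 89 and 76 counts in Ctr. This is 15.8 and 14.8 CPM in ATO against 6.04 and 5.03 CPM in Ctr, so the lowest ATO library lay well above the highest Ctr library. The rise was 2.77-fold, with a mean of 15.3 ± 0.732 CPM in ATO and 5.53 ± 0.710 CPM in Ctr (SD, n = 2 each; log2 fold change 1.47 ± 0.17 SE, adjusted p = 0.000151). The call held under all 11 alternatives, with log2 values from 1.34 without Ctr replicate 2 to 1.61 without Ctr replicate 1. Bmp6 shares 224 of its 3900 annotated exon bases with Txndc5 on the opposite strand, and whether counting used strand is not stated. Txndc5, which encodes a protein disulfide isomerase, had a log2 fold change of 0.13 ± 0.09 (adjusted p = 0.498). The choroid plexus and ependymal markers were higher in the same ATO libraries, and a link with Bmp6 was not tested.

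Gdf10, also called BMP3B, had 13.9 and 12.8 CPM in ATO against 8.95 and 10.3 CPM in Ctr. The groups did not overlap, with ATO above Ctr as in 24.8% of all genes. Gdf10 did not pass (log2 fold change 0.47 ± 0.16, adjusted p = 0.128). Bmp4, a founding ligand of the family, had 3.27 and 3.13 CPM in ATO against 1.899 and 1.85 CPM in Ctr. The Bmp4 groups did not overlap either, but the values rest on 57 and 52 counts in ATO and 28 in each Ctr library (0.77 ± 0.30, adjusted p = 0.187). Bmp7, a ligand made by meninges among other tissues, had 10.8 and 5.84 CPM in ATO replicates 1 and 2 against 6.85 and 4.90 CPM in Ctr replicates 1 and 2. Its groups overlapped, and replicate 1 was the higher library of each group, as it was for the leptomeningeal sum; a link was not tested. The log2 value of Bmp7 was 0.51 ± 0.27 (adjusted p = 0.347), -0.0077 without ATO replicate 1 and 0.88 without ATO replicate 2, where it passed (adjusted p = 0.0219, against 0.141 to 0.996 under the other 10 alternatives). Bmp2, Bmp3 and Gdf9, a growth factor best known from the oocyte, had log2 values of -0.37, -0.35 and -0.65 and did not pass.

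Among the 3 activin-type ligands Inhba rose and 0 fell. Inhba (ENSMUSG00000041324, chromosome 13 from 16011851 to 16031621, plus strand) had 324 and 328 counts in ATO and 197 and 186 counts in Ctr. Normalised, this is 18.6 and 19.7 CPM in ATO against 13.4 and 12.3 CPM in Ctr, with no overlap. The rise was 1.49-fold (19.2 ± 0.810 CPM in ATO, 12.8 ± 0.740 CPM in Ctr, SD, n = 2 each; log2 0.58 ± 0.13 SE, adjusted p = 0.0284). The call ended in DESeq2's Wald test (adjusted p = 0.0975), without Ctr replicate 1 (0.0524), without Ctr replicate 2 (0.144) and without ATO replicate 2 (0.104), in a range from 0.00647 to 0.144 over the 11 alternatives, while the log2 value stayed between 0.52 and 0.64. Inhbb, which encodes the other beta subunit, lay the other way at 7.004 and 5.66 CPM in ATO against 7.87 and 9.07 CPM in Ctr, without passing (-0.42 ± 0.20, adjusted p = 0.281). Gdf11, a relative of myostatin and the group's highest member per length, had 29.0 and 29.6 CPM in ATO against 25.1 and 27.3 CPM in Ctr (0.16 ± 0.11, adjusted p = 0.465).

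None of the 3 TGF-beta ligands passed in edgeR, DESeq2 or limma-voom, and 1, Tgfb2, had an unadjusted p under 0.05. Tgfb2, the highest of them per length, had 73.0 and 75.6 CPM in ATO against 68.1 and 61.3 CPM in Ctr (log2 0.20 ± 0.08, adjusted p = 0.227), with Tgfb1 at 0.27 and Tgfb3 at -0.02. Latent TGF-beta is stored in the matrix on binding proteins of the Ltbp genes, and Bmp1 encodes a protease that frees ligands from antagonists and matrix. Ltbp3 had 32.5 and 31.7 CPM in ATO against 25.1 and 28.5 CPM in Ctr (0.26 ± 0.11, adjusted p = 0.216). Ltbp4 had 82.3 and 80.2 CPM in ATO against 92.05 and 83.2 CPM in Ctr (-0.11 ± 0.08, adjusted p = 0.529). Bmp1 and Ltbp1 were at -0.07 and 0.08 and their libraries overlapped.

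**Figure D3:**
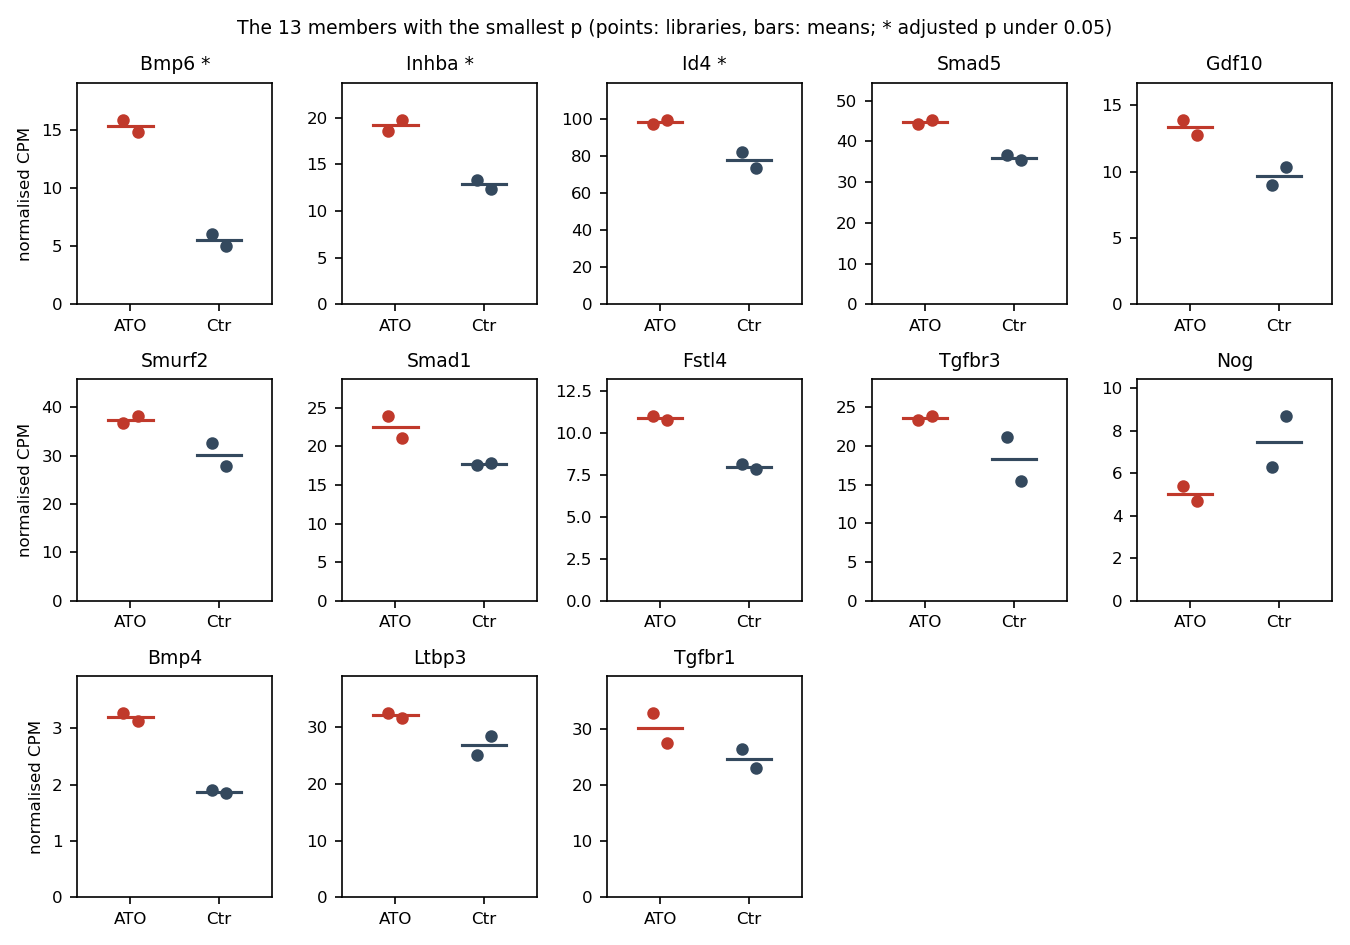
Normalised CPM (y axes from 0) in each ATO library (red, left) and Ctr library (dark, right) for the 13 members with the smallest p; bars are means of 2 libraries and asterisks mark an adjusted p under 0.05. Bmp6 shows the widest gap as a ratio, 14.8 CPM in the lower ATO library against 6.04 CPM in the higher Ctr library, and Nog is the gene drawn with ATO below Ctr.

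No receptor gene rose or fell: of 7 type 1, 4 type 2 and 2 accessory receptor genes, 0 passed in edgeR, DESeq2 or limma-voom with all 4 libraries, and 2 had an unadjusted p under 0.05 in edgeR. These 2 are Tgfbr1, the type 1 receptor of TGF-beta, and Tgfbr3, which encodes the co-receptor betaglycan. Tgfbr1 had 33.0 and 27.5 CPM in ATO against 26.5 and 23.1 CPM in Ctr (log2 0.29 ± 0.12, adjusted p = 0.224). Tgfbr3 had 23.4 and 23.8 CPM in ATO against 21.2 and 15.4 CPM in Ctr (0.37 ± 0.14, adjusted p = 0.184); its Ctr replicates differed more from each other than the upper one did from ATO. Without Ctr replicate 1 Tgfbr3 was at 0.61 and passed (adjusted p = 0.0415); without Ctr replicate 2 it was at 0.15 (adjusted p = 0.650). Acvr1b, an activin type 1 receptor, had 121.9 and 124 CPM in ATO against 118 and 107 CPM in Ctr (0.13 ± 0.08, adjusted p = 0.424). The other type 1 receptor genes, Bmpr1a, Bmpr1b, Acvr1, Acvr1c and the endothelial receptor gene Acvrl1, lay between -0.09 and 0.19. Among the type 2 receptors the estimates nearest 0 were those of Acvr2a (-0.004 ± 0.08; 78.2 and 71.04 CPM in ATO, 77.7 and 72.1 CPM in Ctr) and Bmpr2 (0.002 ± 0.09; 182 and 179 CPM in ATO, 195 and 165 CPM in Ctr). Tgfbr2 was at 0.14 and Acvr2b at -0.16, and without Ctr replicate 2 both changed sign, to -0.083 and 0.25.

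All 5 receptor SMAD genes had a positive log2 fold change and 0 passed in edgeR, DESeq2 or limma-voom; the 2 with an unadjusted p under 0.05 in edgeR, Smad5 and Smad1, are both of the BMP branch. Smad5 had 44.3 and 45.3 CPM in ATO against 36.6 and 35.4 CPM in Ctr, with no overlap (log2 0.32 ± 0.09, adjusted p = 0.0778). With the replicate number as a block Smad5 passed (adjusted p = 0.0282). Smad1 had 23.9 and 21.1 CPM in ATO against 17.6 and 17.9 CPM in Ctr (0.34 ± 0.12, adjusted p = 0.149). Smad9, of the same branch, was at 0.08 ± 0.17 and at -0.12 without Ctr replicate 2. In the branch of TGF-beta and activin, Smad3 had 91.2 and 81.6 CPM in ATO against 84.8 and 70.4 CPM in Ctr, overlapping (0.16 ± 0.10, adjusted p = 0.429), and Smad2 was at 0.09 ± 0.10. Smad4 had 35.6 and 37.8 CPM in ATO against 36.2 and 36.1 CPM in Ctr (0.02 ± 0.10, adjusted p = 0.930).

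Of the 4 genes that restrain signalling inside the cell, 0 passed in edgeR, DESeq2 or limma-voom, and Smurf2 had an unadjusted p under 0.05. Smurf2, a ubiquitin ligase for receptors and SMADs, had 36.7 and 38.1 CPM in ATO against 32.6 and 27.8 CPM in Ctr (log2 0.31 ± 0.11, adjusted p = 0.137). Its relative Smurf1 had 48.3 and 47.8 CPM in ATO against 47.7 and 48.1 CPM in Ctr (0.005 ± 0.09, adjusted p = 0.986). The inhibitory SMAD genes, Smad7 and the BMP-induced Smad6, were at -0.15 ± 0.13 and -0.18 ± 0.35; Smad6 had 55 and 35 counts in ATO and 59 and 30 counts in Ctr, and its log2 value was 0.41 without Ctr replicate 1 and -0.60 without Ctr replicate 2.

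Of the 5 inhibitors of ligands or receptors 0 passed in edgeR, DESeq2 or limma-voom with all 4 libraries, and 4 had an unadjusted p under 0.05 in edgeR, 3 of them lower in ATO. For Nog, Chrd, Grem1 and Fst, which encode the secreted antagonists noggin, chordin, gremlin 1 and follistatin, both ATO libraries lay below both Ctr libraries, as they did for 23.4% of all genes. Nog had 5.40 and 4.70 CPM in ATO against 6.31 and 8.67 CPM in Ctr (log2 -0.57 ± 0.22, adjusted p = 0.187), and was at -0.32 without Ctr replicate 2. Chrd, the highest of these genes per length, had 105.9 and 109.9 CPM in ATO against 112.5 and 139 CPM in Ctr (-0.22 ± 0.09, adjusted p = 0.226). The Chrd value rests on Ctr replicate 2: without Ctr replicate 1 it was -0.37 and passed (adjusted p = 0.0336), and without Ctr replicate 2 it was -0.065. Grem1 was at -0.50 ± 0.21 (adjusted p = 0.226) and Fst at -0.32 ± 0.27 (0.597). Bambi, a decoy receptor that lacks a kinase domain, lay the other way at 0.50 ± 0.21 (adjusted p = 0.227).

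Among the 4 ID genes 1 rose and 0 fell. Id4 (ENSMUSG00000021379, chromosome 13 from 48261228 to 48266026, plus strand), which is expressed in astrocytes and neural stem cells, had 97.2 and 99.4 CPM in ATO against 82.3 and 73.5 CPM in Ctr. The rise was 1.26-fold (98.3 ± 1.56 CPM in ATO, 77.9 ± 6.21 CPM in Ctr, SD, n = 2 each; log2 0.34 ± 0.08 SE, adjusted p = 0.0388). The call ended in DESeq2's Wald test (adjusted p = 0.0793), without Ctr replicate 2 (0.192), without ATO replicate 1 (0.0932) and without ATO replicate 2 (0.123), in a range from 0.00450 to 0.192 over the 11 alternatives, with log2 values from 0.25 to 0.42. Of 12 astrocyte markers 1, Gjb6, rose and 0 fell (log2 0.44, adjusted p = 0.0137). At an unadjusted p under 0.05, 5 were higher (41.7%, against 10.6% of all genes) and 3 lower (25%, against 7.55%). Both ATO libraries lay above both Ctr libraries for 6 of the 12 (50%, against 24.8% of all genes). They lay below for 3 (25%, against 23.4%). The summed levels of the 12 markers were 5058 and 5340 CPM in ATO against 5252 and 4969 CPM in Ctr. Slc1a2 alone averaged 2223 CPM in ATO and 2198 CPM in Ctr. The part of astrocytes in the Id4 result was not tested.

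The other ID genes did not pass. Id1 had 18.5 and 13.6 CPM in ATO replicates 1 and 2 against 14.8 and 9.80 CPM in Ctr replicates 1 and 2, and Id3 had 36.7 and 29.9 CPM in ATO against 31.9 and 24.9 CPM in Ctr. Both genes overlapped between groups, and replicate 1 exceeded replicate 2 within each group (log2 0.39 ± 0.19 and 0.23 ± 0.13, adjusted p = 0.315 and 0.391). Id2 had 69.2 and 73.4 CPM in ATO against 87.5 and 73.8 CPM in Ctr (-0.18 ± 0.09, adjusted p = 0.333).

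**Figure D4:**
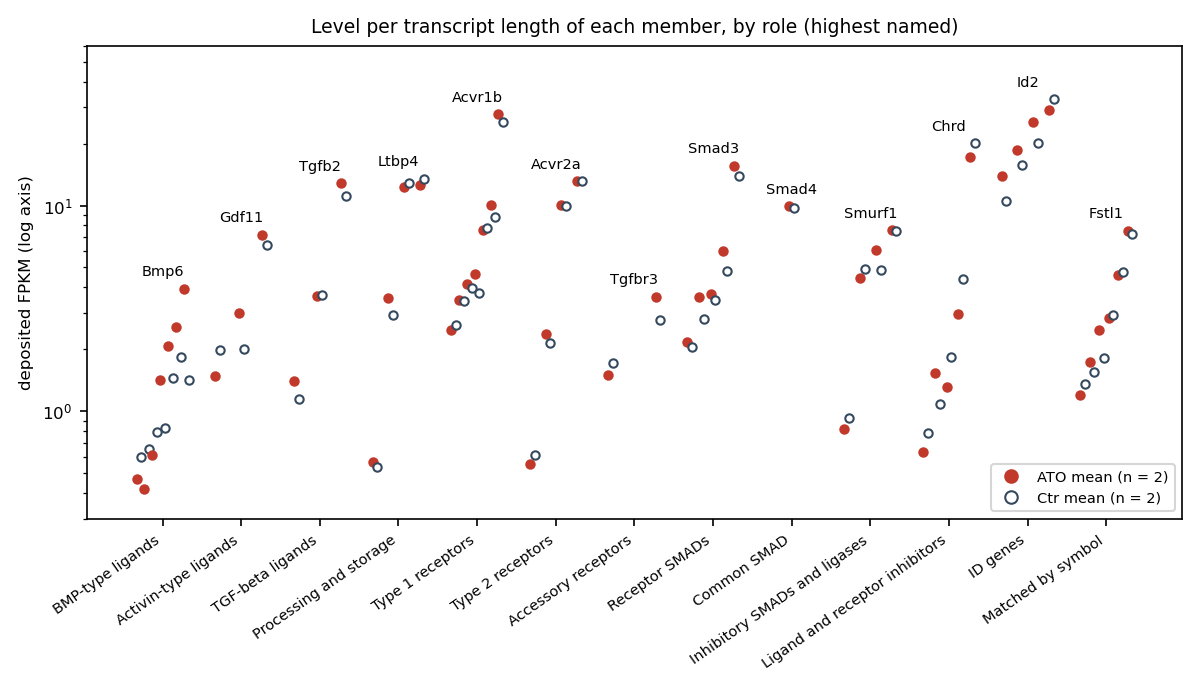
Deposited FPKM, a level per transcript length, on a log axis for each of the 55 genes by role: red points are ATO means, open points Ctr means (n = 2 libraries each). The BMP-type ligands stay at or below the 3.93 FPKM of Bmp6 in ATO, while Id2, Acvr1b, Id4 and Chrd are among the highest.

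Per transcript length the family spanned a wide range, and its ligands were mostly low. Over all 4 libraries the highest mean level was 31.1 FPKM for Id2, followed by 26.6 FPKM for Acvr1b, 22.8 FPKM for Id4, 18.6 FPKM for Chrd and 17.2 FPKM for Id3. Among the BMP-type ligands, Bmp6 had 4.09 and 3.77 FPKM in ATO against 1.53 and 1.29 FPKM in Ctr. In ATO it was thus the highest of the 7 ligands by mean FPKM, at 3.93, and in Ctr at 1.41 it was below Gdf10 at 1.84 and Bmp7 at 1.46. Chrd exceeded Nog, at 18.6 against 3.69 FPKM over all libraries. The lowest members, at 0.535 to 0.550 FPKM, were Bmp3, Gdf9 and Ltbp1.

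A set of 6 genes was matched by symbol but has a looser tie to the pathway, and 0 of them passed in edgeR, DESeq2 or limma-voom; Fstl4 alone had an unadjusted p under 0.05. Fstl4, which encodes a secreted protein related to follistatin, had 11.0 and 10.8 CPM in ATO against 8.14 and 7.81 CPM in Ctr (log2 0.45 ± 0.17, adjusted p = 0.171). Fstl1 had 38.5 and 35.7 CPM in ATO against 38.9 and 32.6 CPM in Ctr, with a log2 fold change of 0.05 ± 0.11 (adjusted p = 0.849). Fstl5, the kinase gene Bmp2k, Tgfb1i1 and Tgfbrap1 lay between -0.18 and 0.16.

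Of 85 other symbols of the pathway that were listed, 67 were tested. Among these 67 genes, 5 rose and 0 fell in edgeR (7.46% higher, against 2.87% of all genes). Their median log2 fold change was 0.05, and DESeq2 and limma-voom called 0 lower. At an unadjusted p under 0.05 in edgeR, 12 were higher (17.9%, against 10.6% of all genes) and 6 lower (8.96%, against 7.55%). With the replicate number as a block 9 rose and 3, Fbn1, Ube2o and Zeb2, fell, against 890 and 476 of all 15713 genes. Sostdc1, which encodes a secreted BMP and Wnt antagonist and is also on the choroid plexus marker list, had 13.3 and 19.1 CPM in ATO against 2.10 and 2.12 CPM in Ctr (log2 2.93 ± 0.23, adjusted p = 2.58e-06). Tgfbi, a matrix protein gene named for its induction by TGF-beta, had 7.75 and 6.86 CPM in ATO against 2.03 and 2.65 CPM in Ctr (1.64 ± 0.25, adjusted p = 0.00144). The homeobox gene Msx1, a BMP target in development, had 9.93 and 9.39 CPM in ATO against 4.48 and 3.38 CPM in Ctr (1.30 ± 0.21, adjusted p = 0.00270).

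Atoh8, a helix-loop-helix factor gene that BMP signalling induces in liver and endothelium, had 3.96 and 4.15 CPM in ATO against 1.63 and 1.59 CPM in Ctr (1.33 ± 0.30, adjusted p = 0.0237). Itgb8, an integrin subunit gene whose product activates latent TGF-beta, had 66.7 and 64.5 CPM in ATO against 54.5 and 45.2 CPM in Ctr (0.40 ± 0.10, adjusted p = 0.0371). In all 5 genes the lowest ATO library exceeded the highest Ctr library, as it did for 24.8% of all genes. The calls of Sostdc1 and Msx1 held under all 11 alternatives, and that of Tgfbi under the 10 that kept it in the table. Atoh8 lost its call in DESeq2 (adjusted p = 0.0907), without Ctr replicate 1 (0.0677) and without Ctr replicate 2 (0.116). Itgb8 lost it in DESeq2 (0.0793), without Ctr replicate 2 (0.217; log2 0.27) and without ATO replicate 1 (0.0927); the adjusted p spanned 0.00751 to 0.116 for Atoh8 and 0.00317 to 0.217 for Itgb8. The next by p did not pass: Twsg1, a BMP-binding protein gene, at 0.37, the ligase gene Nedd4l at 0.29, the corepressor gene Ski at 0.25 and the fibrillin gene Fbn1 at -0.48, with adjusted p from 0.0619 to 0.109. With the replicate number as a block all 4 passed (adjusted p = 0.0108, 0.00469, 0.0155 and 0.0279 in that order), as did Twsg1 and Nedd4l without Ctr replicate 1 (0.0355 and 0.0343). The choroid plexus and ependymal markers were higher in the same ATO libraries as these 5 genes, and their part in these rises was not tested.

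**Figure D5:**
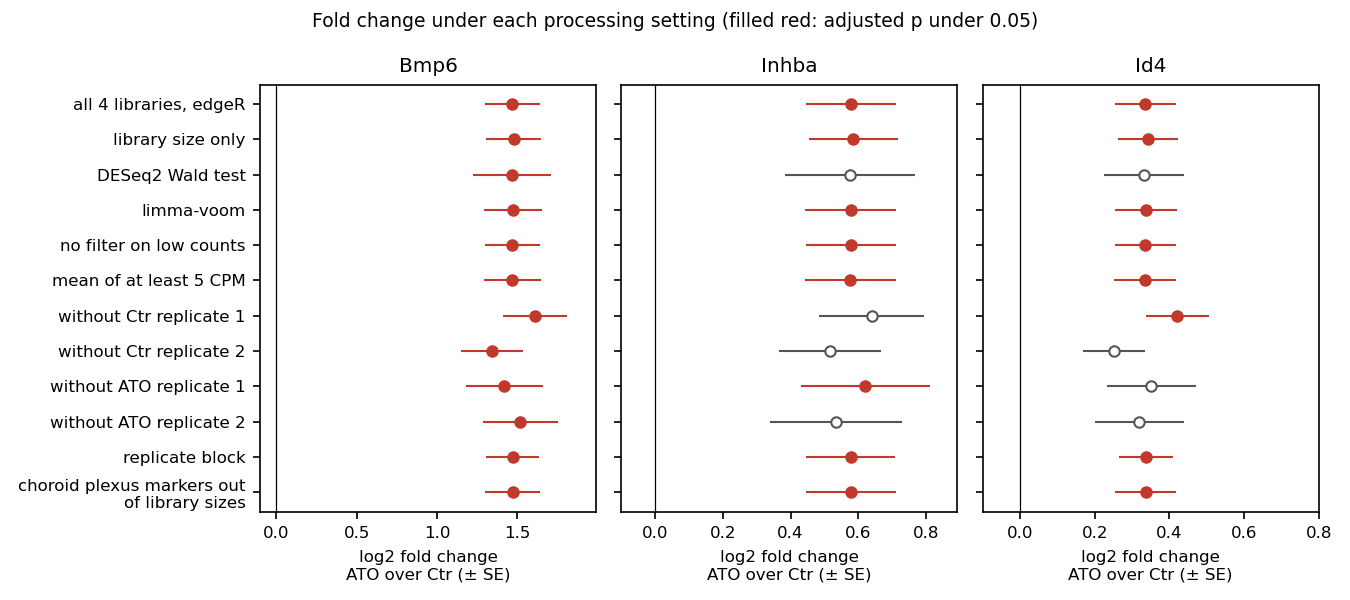
Log2 fold change of ATO over Ctr with SE bars for Bmp6, Inhba and Id4 under the edgeR fit of all 4 libraries and each of 11 alternatives; filled red points have an adjusted p under 0.05. Bmp6 is filled throughout, while Inhba and Id4 each have 4 open points without crossing 0.

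The authors' deposited table marks 1 of the 55 genes, Bmp6, as differentially expressed (log2 fold change 1.45, adjusted p = 0.000224), against 0.974% of all genes. The authors' deposited table gives Inhba and Id4 an adjusted p of 0.0320 and 0.0415 without the mark.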

How the data were processed

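RNA was measured in 4 hippocampus libraries, 2 ATO and 2 Ctr. Libraries came from an Illumina TruSeq kit, per the labels' protocols. The submitters' processing notes name the tools limma 3.47.15 with R 4.1.0, HTSeq 0.6.1, HISAT2 2.0.1, cutadapt 1.9.1 and FastQC 0.10.1, and build GRCm38; settings and strand are not stated there. The authors deposited 1 table with, per the file headers, the count and the FPKM of each gene in each library, and the authors' log2 fold change, p-value and adjusted p-value. Every gene of it had over 1 CPM in at least 2 libraries.

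The deposited counts went into edgeR 4.0.16 (R 4.3.3) with its filterByExpr step, which removed 0 genes, TMM factors of 0.9939 to 1.0098, the quasi-likelihood test of ATO against Ctr without covariates, and Benjamini-Hochberg adjustment over all 15713 genes. The SE is the log2 fold change divided by the square root of F. Normalised CPM are counts per TMM-scaled library size. Alternatives used DESeq2 1.42.0 and limma 3.58.1. The alternative without the filter on low counts repeats the main fit, as that filter removed 0 genes. Levels between genes use deposited FPKM. The test was tried on counts simulated from its own fitted model, which cannot show how it behaves where real counts depart from that model. Positions are from GENCODE vM21.

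The members and gene lists were chosen with earlier results of these data known. Values per library are given for the members that passed, the next 10 by p and the highest by FPKM in each of 13 role groups; for Inhbb, Bmp7, Bmpr2, Smad6, Id1 and Id3, outside this rule, they were added after their values were seen. Other members are given by log2 fold change. Of the other pathway genes, those that passed and the next 4 by p are named.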

Additional observations from a re-analysis of the deposited data

How the results depend on the processing

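With each library left out in turn, where the lone sample of a group is assumed to vary like the other group, the count of genes past the threshold was 222 to 611 over all genes (586 with all 4 libraries; 222 without Ctr replicate 2), 1 to 4 over the family (3; 1 without Ctr replicate 2) and 3 to 7 over the other pathway genes (5; 3 without Ctr replicate 2). DESeq2's Wald test gave 316, 1 and 3 for these counts. With the replicate number as a block they were 1366, 4 and 12, and of the 12, 9 were higher and 3 lower in ATO. The labels do not say what a number shares; the same-numbered libraries deviated from their group means with a correlation of 0.210 over 12086 genes and 0.351 over the 55 members, and 2 pairs are too few to show pairing. A filter at a mean of 5 CPM gave 3 for the other pathway genes, because Tgfbi and Atoh8 were not tested there. Bmp4 was not tested either. Leaving out the filter on low counts repeated the main fit, because filterByExpr removed 0 genes. That alternative could therefore change no call and no sign.

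Of 360 values of named genes under the alternatives, 330 kept direction and side of the threshold, 14 lost a call, 9 gained one and 7 changed sign. For the 4 genes behind these 7, with 1 library left out, log2 values were -0.019 (without ATO replicate 2) to 0.066 for Smad4, -0.0035 (without ATO replicate 1) to 0.013 for Smurf1, -0.071 (without Ctr replicate 2; -0.0019 without ATO replicate 1) to 0.187 for Fstl1, and -0.076 to 0.063 (without ATO replicate 2; 0.053 without Ctr replicate 1) for Acvr2a, which was at 0.0029 with library size only. Over the whole family, 47 genes were tested under all 11 alternatives and 8 under the 10 without the 5 CPM filter; 30 of the 47 and 6 of the 8 kept their sign under each alternative that tested them, and Bmp6 alone was called under each. Of the 19 that changed sign, Smad6 spanned -0.60 to 0.41, Acvr2b -0.48 to 0.25, Tgfbr2 -0.083 to 0.40, Smad9 -0.12 to 0.29 and Bmp7 -0.0077 to 0.88. The cause of these changes was not tested. Gdf9, Smad6, Acvr2b, Bmp2, Bmp4 and Fst, with 59 counts or fewer in each library, had SEs of 0.27 to 0.42. Small differences in these genes were not detectable at this depth.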
